A study of Homo sapiens with 22 samples.

Results

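The neighbourhood of MYCL1, MFSD2A, CAP1, PPT1 and RLF on chromosome 1 held 7 of the 9584 BMAL1 (ARNTL) peaks and 0 of the 269 CLOCK peaks listed for THP-1 cells. A peak was counted when its midpoint lay in chr1:40300000-40720000 of build hg19. The interval was selected on its high BMAL1 peak scores, so the scores below are a description and no test was made of them. All 7 peaks lay between the 5′ edge of MYCL1 and the 5′ edge of PPT1. The 4 in the gap between MYCL1 and CAP1 scored 127.5 to 255, the 1 inside CAP1 scored 201.5 and the 2 inside PPT1 scored 206 and 209.5.

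The study mapped circadian transcription factors by chromatin immunoprecipitation and sequencing (ChIP-seq) in cell lines carrying the MLL-AF9 fusion, and described 22 libraries. The lists analysed here are from 2 of them, 1 for BMAL1 and 1 for CLOCK, both made from THP-1, a human monocytic leukaemia line. These cells received no treatment and were fixed with 2 mM EGS, a long-armed protein crosslinker, for 30 minutes and then with 1% formaldehyde for 30 minutes. The other 20 libraries, IgG and input among them, were not analysed here, so each factor has 1 library, no value below has a replicate error and the background at these sites in control chromatin is not given. Peak lists hold no expression values, so the cell type was not checked against markers, and the sequencing depth is unknown.

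BMAL1 and CLOCK are basic helix-loop-helix proteins that bind DNA as a heterodimer, typically at the E-box CACGTG, and drive the genes of the circadian feedback loop, including those of their own repressors. MYCL1, now named MYCL, encodes L-Myc, a member of the same protein class that pairs with MAX and also recognises E-boxes. The other genes have unrelated roles. MFSD2A encodes a sodium-dependent transporter of lysophosphatidylcholine, and CAP1 an actin-regulating protein first known for its binding to adenylyl cyclase. PPT1 encodes a lysosomal enzyme that removes palmitate from proteins and is lost in an infantile form of neuronal ceroid lipofuscinosis. RLF encodes a zinc finger protein first found as a fusion partner of MYCL in small cell lung cancer.

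Gene limits of build hg19 were at hand for MYCL1 (chr1:40361098-40367687), CAP1 (chr1:40505905-40538321) and PPT1 (chr1:40538379-40563375), and came with the definition of the interval. For MFSD2A and RLF only the order of genes in RefSeq was used, in which MFSD2A lies between MYCL and CAP1 and RLF follows PPT1. No exon, intron or UTR annotation of hg19 was used here. RefSeq also lists 3 pseudogenes and 2 long noncoding RNAs from MYCL to RLF, beside the 5 protein-coding genes. MYCL and PPT1 are read from the minus strand and CAP1, MFSD2A and RLF from the plus strand, so the upstream sides of MYCL and MFSD2A face each other.

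The sequences just before the gene starts are shown because the E-box that BMAL1 and CLOCK are known for can be looked up in them, while the bases under the peaks were not read, no genome of build hg19 being used here. The promoter windows are from RefSeq, build GRCh38.p14, 250 bases before each listed start, read 5′ to 3′ along the gene. Their coordinates belong to another build than the peaks and were not converted, so distances from these windows to the peaks are not given. Each of the 5 genes matched, with 7 windows in all, 3 of them for CAP1. Capitals mark CACGTG in RLF and AACGTG, a variant E-box, in MFSD2A. The MYCL window is shown because, of the 5′ edges of MYCL1, CAP1 and PPT1, that of MYCL1 had the nearest listed peak, and it held neither motif.
RLF, GRCh38.p14 chr1:40161137-40161386, plus strand: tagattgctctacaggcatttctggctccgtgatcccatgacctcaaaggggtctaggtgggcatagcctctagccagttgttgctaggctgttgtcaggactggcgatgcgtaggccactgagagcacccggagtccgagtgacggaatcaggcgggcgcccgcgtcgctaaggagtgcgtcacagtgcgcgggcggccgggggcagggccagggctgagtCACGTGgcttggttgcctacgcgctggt
MFSD2A, GRCh38.p14 chr1:39954895-39955144, plus strand: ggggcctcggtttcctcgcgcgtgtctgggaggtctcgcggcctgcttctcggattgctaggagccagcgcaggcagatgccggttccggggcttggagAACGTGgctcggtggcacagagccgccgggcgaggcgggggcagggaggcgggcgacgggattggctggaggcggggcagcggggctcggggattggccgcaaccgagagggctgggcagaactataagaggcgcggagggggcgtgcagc
MYCL, GRCh38.p14 chr1:39901918-39902167, minus strand: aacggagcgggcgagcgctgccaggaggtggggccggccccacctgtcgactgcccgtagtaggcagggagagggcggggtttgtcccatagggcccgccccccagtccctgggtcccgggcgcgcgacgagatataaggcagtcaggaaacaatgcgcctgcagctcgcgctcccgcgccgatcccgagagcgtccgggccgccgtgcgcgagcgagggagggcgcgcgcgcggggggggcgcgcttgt
The search was for CACGTG, which reads the same on both strands, and for CACGTT or AACGTG, which are the same motif read on opposite strands. The E-box CACGTG was found in 1 of the 7 windows, starting 28 bases before the RLF start, against 6.34% of all 35116 RefSeq windows of this length. The variant was found in 1 of the 7, starting 151 bases before the MFSD2A start, against 4.55% of all windows. Neither was found in the windows of MYCL, CAP1 and PPT1. These matches describe letters in a window and were not measured as binding.

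MYCL1 itself held no listed peak. The nearest was chr1:40373193-40373589, which scored 127.5, the lowest of the 7 and rank 18 in the whole BMAL1 list. Its midpoint lay 5704 bp upstream of the 5′ edge of MYCL1. The interval before MYCL1, 61098 bp long, held 0 listed peaks, so the downstream side of the gene was empty out to the edge of the interval.

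The gap between MYCL1 and CAP1, which holds MFSD2A, was the most populated stretch. It is 138217 bp long, 32.9% of the interval, and held 4 of the 7 peaks. The highest score of the neighbourhood, 255, was at chr1:40399926-40400322, at rank 4 in the list and 32437 bp upstream of the MYCL1 5′ edge. After it came chr1:40420030-40420426 with 134 at rank 14, and chr1:40426270-40426666 with 132 at rank 15. The midpoints of these last peaks were 6240 bp apart and their scores differed by little. Thus 3 of the 4 scored between 127.5 and 134, and the remaining one stood well above them. Whether any of the 4 lies inside MFSD2A or near its start was not determined.

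CAP1 held 1 listed peak, chr1:40516460-40516856, which scored 201.5 and ranked 7. Its midpoint lay 10753 bp downstream of the CAP1 5′ edge, within the gene. The distance from the edge of this peak to the 5′ edge of CAP1 was 10555 bp, so the peak did not reach the start of the gene as given.

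PPT1 held a close pair. The peaks chr1:40542628-40543024 and chr1:40545636-40546032 scored 209.5 and 206 and ranked 5 and 6. Their midpoints were 3008 bp apart, and lay 4447 and 7455 bp from the 3′ edge of PPT1. From the 5′ edge of PPT1 they were 20549 and 17541 bp away. Both thus sat toward the end of the gene that faces CAP1, and the first of them was 4505 bp beyond the CAP1 limit. Across the peaks inside CAP1 and PPT1 the scores ran from 201.5 to 209.5, against 127.5 to 255 for the 4 in the gap before CAP1.

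**Figure D1:**
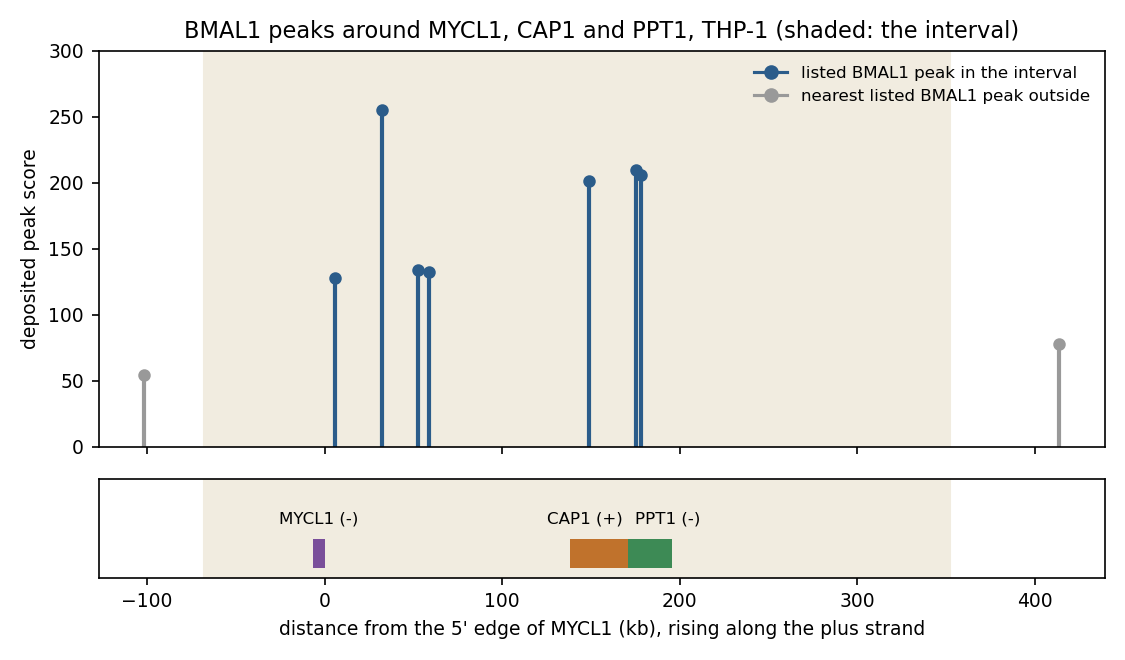
Deposited scores of the 7 BMAL1 peaks (blue) by distance in kb from the 5′ edge of MYCL1, with the nearest listed peak on each side of the interval (grey, scores 54.5 and 78). Bars below mark MYCL1, CAP1 and PPT1 with their strands, and MFSD2A and RLF are not drawn. A reader should see 4 peaks between MYCL1 and CAP1, 1 in CAP1, 2 in PPT1 and none in the shaded part beyond PPT1.

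No peak was listed beyond PPT1. The stretch from its 5′ edge to the end of the interval is 156625 bp long, 37.3% of the interval, and holds RLF. It contained 0 BMAL1 and 0 CLOCK peaks, and the RLF promoter window carries the CACGTG printed above. The gap between the second PPT1 peak and the next listed peak, past the interval, was 234972 bp.

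By midpoint, 3 of the 7 peaks (42.9%, exact Clopper-Pearson 95% interval 9.9 to 81.6%) were inside MYCL1, CAP1 or PPT1, which together cover 15.2% of the interval. The interval of the share is wide and includes that percentage. It covers counting error only, takes the peaks as independent although those in PPT1 are a close pair, and was not used as a test. Both shares leave out MFSD2A and RLF, whose limits in hg19 were not at hand. No listed peak lay over the 5′ edge of any of the 3 genes. The nearest peak edges were 5506 bp away for MYCL1, 10555 bp for CAP1 and 17343 bp for PPT1. Distances to the starts of MFSD2A and RLF were not determined. These values therefore do not show that the peaks lay far from every gene start.

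The scores that chose the neighbourhood were far above those of most listed peaks. Their median was 201.5 with a lowest value of 127.5. The other 1180 BMAL1 peaks of chromosome 1 had a median of 16, quartiles of 12 and 23.5 and a 90th percentile of 36.55. Only 7 of those 1180 scored 127.5 or more, which together with the members made 14 of 1187, or 1.18% of the chromosome's list. Of these 7, 6 lay between 40 and 44 Mb of chromosome 1 as well, and the other at chr1:161469501-161469897 scored 135. Among 8397 peaks on all other chromosomes, with a median of 14.5, 4 reached that level. The peak just below the lowest member, chr1:40888809-40889205, scored 127. A median this high follows from the choice of the interval and supports nothing further.

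**Figure D2:**
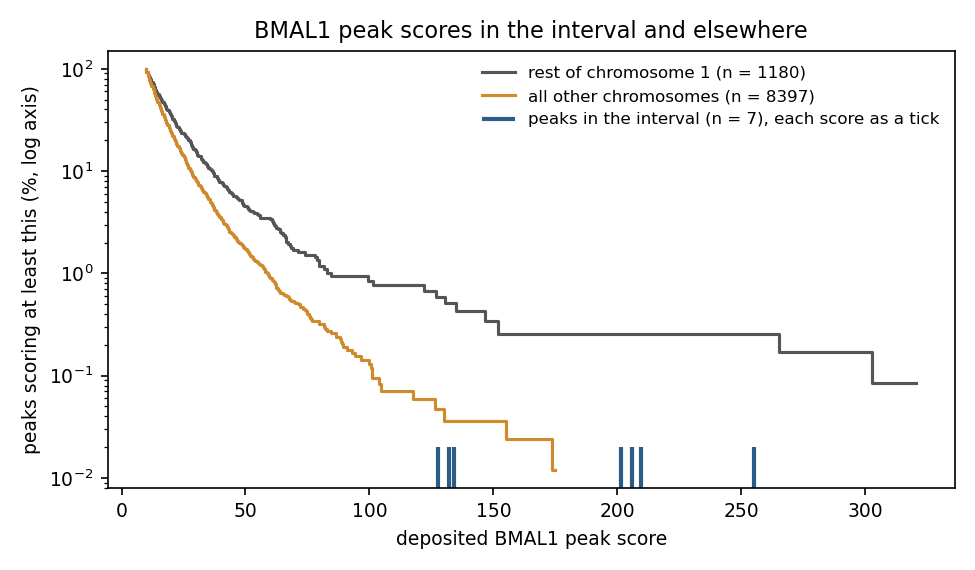
Percent of BMAL1 peaks (log axis) with at least the score on the horizontal axis, for the rest of chromosome 1 and for all other chromosomes, with the 7 peaks of the interval as ticks. The ticks start at 127.5, a level reached by 0.593% of the other chromosome 1 peaks and 0.0476% of the peaks on other chromosomes.

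High scores did not stop at the edges of the interval. The first listed peak before it, chr1:40266085-40266481, was 33717 bp outside and scored 54.5, and the first after it, chr1:40781005-40781401, was 61203 bp outside and scored 78. Beyond the latter came scores of 146.5, 127 and 302.5, the last at chr1:40968311-40968707, which exceeds every peak of the neighbourhood. A run of 18 listed peaks in a row, each scoring at least the 90th percentile of the other chromosome 1 peaks, reached from chr1:39974324 to 41392542 and spans 1.42 Mb. The run includes all 7 peaks. The longest of the 80 other such runs on the chromosome had 8 peaks, and it too lay near, from 43795775 to 44300552.

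**Figure D3:**
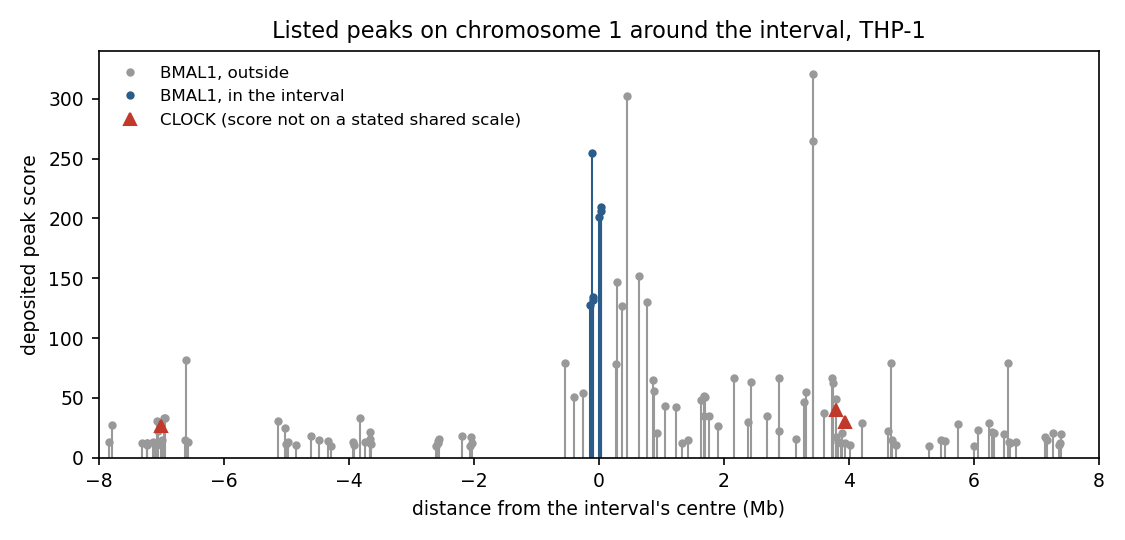
Deposited scores of listed BMAL1 peaks (blue in the interval, grey outside) and CLOCK peaks (red triangles) by distance in Mb from the interval's centre. The 7 blue peaks stand beside grey peaks of up to 302.5 on their right, and a further pair of 320.5 and 265 appears farther right. CLOCK scores are not stated to share the BMAL1 scale.

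The members also lay closer together than most peaks of the chromosome, a measure that the scores do not fix but that was known when the interval was drawn. Their median distance to the nearest listed midpoint was 6240 bp (range 3008 to 26733 bp, 7 peaks), against 30821.5 bp for the other 1180 peaks. Spacing depends on how many peaks a stretch holds, and most of those 1180 were not drawn from stretches chosen for holding 7. The spacing was not compared with that in other stretches of the same length with 7 or more peaks, so it is not a trait separate from the count. Chromosome 1 held 72 neighbouring pairs with midpoints within 5000 bp. In 2 of them both peaks scored 127.5 or more, namely the PPT1 pair and a pair at chr1:43938201-43938597 and chr1:43941563-43941959 with midpoints 3362 bp apart. The higher score of the PPT1 pair was 1.02 times the lower one. For the other pair this ratio was 1.21, and over all 72 pairs its median was 1.25.

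Number and score of peaks were compared over windows of the same length, laid end to end along chromosome 1. Of 593 other windows, 224 held no listed peak, the median was 1 and the largest number 16. At least 7 peaks were found in 39 of them, or 6.58%, so the number alone was not rare. In those 39 windows the median scores reached 41.5 at most, against 201.5 here, and the lowest score in a window was at most 17, against 127.5. Of windows with at least 3 peaks, the next one after the interval came closest, with 4 peaks and a median of 136.75. Outside 40 to 44 Mb the highest median of 178 such windows was 41.5.

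**Figure D4:**
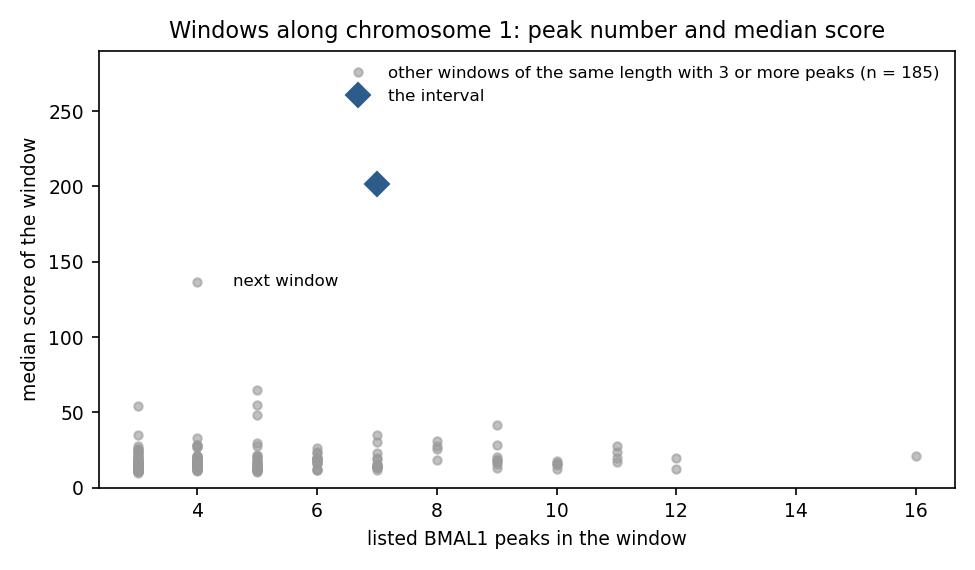
Number of listed BMAL1 peaks (horizontal) and their median score (vertical) in windows of 420000 bp along chromosome 1 with at least 3 peaks. The interval (diamond) has 7 peaks and a median of 201.5, the next window has 136.75, and each of the other windows lies at 65 or lower.

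CLOCK, the partner of BMAL1, had no listed peak in the neighbourhood. The nearest CLOCK peaks were chr1:33502277-33502809 with a score of 27, 6.80 Mb before the interval, and chr1:44300188-44300720 with a score of 40, 3.58 Mb after it. Accordingly 0 of the 7 BMAL1 peaks overlapped a CLOCK peak, which allows a share of up to 42.9% (3 counts of 7). Over the whole BMAL1 list 1.46% of peaks overlapped one, and on chromosome 1 1.01%, so a count of 0 among 7 does not set these peaks apart from the list. In the authors' deposited table of regions common to both factors, 12 of 140 regions were on chromosome 1 and 0 in the interval. All 18 BMAL1 peaks of the list that scored 127.5 or more, the members included, were without a CLOCK overlap. By the same rule of 3 counts this allows a share of up to 16.7%. That range includes the 1.46% of the whole list, so these 18 are not set apart either. The highest BMAL1 score at a shared site was 126.5 over the whole list and 74 on chromosome 1. The first of these is just under 127.5, a cut that the lowest member set. Most windows would have held no CLOCK peak either, since 23 of the 593 other windows (3.88%) did.

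Both lists carry a number for each peak that follows its score within a chromosome, with 0 exceptions. The members bear the numbers 5, 6, 7, 8, 13, 14 and 16 of chromosome 1. Up to 16, the numbers 1 and 11 were absent from the list, and these sites were not analysed here. By this order number 1 scored no lower than any member and number 11 between 135 and 146.5, at positions that are not known. Over the whole chromosome 57.8% of BMAL1 and 98.7% of CLOCK numbers were absent. Stretches written above as empty, RLF among them, are therefore empty of listed peaks only.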

How the data were processed

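BMAL1 and CLOCK were measured by ChIP-seq in 1 THP-1 library each. Build hg19 and the tools HOMER 4.7.2, Picard, SAMtools 1.2 and Bowtie 0.12.7 are named, without roles, in the submitters' processing notes. The deposited lists name HOMER as their source, and each list came from 1 library. Peak scores are values deposited by the authors, each a multiple of 0.5 with no stated unit, normalization, control or threshold, and were ranked within a list only. Depth per library is unknown.

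The members, gene names and comparisons were chosen with earlier results of these data known. Peaks were assigned by midpoint, overlap meant at least 1 bp, and gene strands came from RefSeq. Every peak in the interval is named, with the nearest listed peak on each side. Other peaks were named after their values were seen. The share of peaks inside genes has an exact 95% interval, and a share of 0 has an upper limit taken as 3 counts. No difference was tested, as the scores chose the interval and no factor had replicates. Alternatives covered the interval rule, a stricter score, merging, the overlap rule and the reference set. The counting was tested on simulated data, where 50 planted overlaps among 2000 peaks were recovered in each of 5 draws. Calculations ran in Python 3.11.15 with scipy 1.17.1, pandas 2.3.3 and numpy 2.4.6, and figures were drawn with matplotlib 3.10.9. The planned search for CACGTG under the peaks was not run, as no hg19 genome was used here.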

Additional observations from a re-analysis of the deposited data

How the results depend on the processing

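Of 18 alternatives to 7 results, 14 left the value as it was and 4 moved it, with no change of direction. All 4 moved values concern scores, which chose the interval. The median score of 201.5 became 140.25 when the interval was widened by 100 kb on both sides. Its difference from the rest of chromosome 1, 185.5, was 187 against all other chromosomes, 150.5 against chromosome 1 within 2 Mb, and 180 when only scores at or above the list median of 14.5 were kept in both sets. The last setting and the promoter window of 300 bases were added after the data were seen. Placement by any base, genes with 5 kb added, merging within 1000 bp and a gap of up to 1000 bp to CLOCK left the counts of 7, 3 and 0 as they were. Since each member exceeds the list median and the members lie more than 1000 bp apart, some of these settings could not change a count.

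No paired analysis was possible because replicate numbers are shared only among NOMO-1 libraries, which were not analysed here. The search for CACGTG under the peaks and its alternatives were not run. The depth is unknown, so a site that is not listed was not shown to be unbound.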
